A study of Homo sapiens with 3 samples.

Results

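Receptor tyrosine kinases are cell surface proteins that bind a growth factor outside the cell and phosphorylate tyrosines inside it, which recruits adaptor proteins and switches on the MAPK and PI3K pathways. In melanoma, the set of these receptors that a cell carries is known to differ between pigmented, proliferative states and poorly pigmented, invasive ones. KIT, which drives melanocyte development, belongs to the former, and AXL, EGFR and PDGFRB are among the receptors known to be high in cells that tolerate BRAF inhibitors. The transcripts of 10 such receptors, AXL, MET, KIT, PDGFRA, PDGFRB, FGFR1, FGFR2, FGFR3, IGF1R and EPHA2, were followed here through a change of growth form. They were chosen by symbol, as every probe that carries one of these names on the array, which gave 23 probes for 10 of the 17530 genes named on it.

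All RNA came from 1205Lu, an established human melanoma line from a lung metastasis that grew in a mouse carrying a xenograft of the melanoma line WM793. The original monolayer (OM) had grown for 14 days in RPMI-1640 with 10% fetal calf serum. The melanoma bodies (MB), adherent 3D clusters, had grown for 14 days in human embryonic stem cell (hESC) medium, which is DMEM/F-12 with 20% serum replacement and no calf serum. The new monolayer (NM) had first spent 14 days as bodies in hESC medium and then 10 days in RPMI-1640 with 10% fetal calf serum, and remaining bodies were taken away before RNA was prepared. Medium and growth form changed together, so their parts in any difference cannot be told apart, and 1 line was used. Each population was measured on 1 array, all 3 on the same slide, so no test between populations could be made and no p-value is given.

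Signals are spot intensities in arbitrary units (a.u.), scaled to 3 housekeeping genes, GAPDH, ACTB and HSP90AA1, whose mean was set to its value in OM. From 26516 (NM) to 29126 (MB) of the 41000 probes were well above background. An SD given with a signal is over the 10 spots of a repeated probe. Such an SD is technical and says nothing of how cultures differ. For probes printed once, a technical SD came from the spread of the repeated probes. It was about 0.06 for a log2 ratio of bright probes and about 0.25 below 100 a.u. for MB over OM. This technical SD covers the spread of spots within an array and no error between arrays, such as from labelling or scaling. For bright probes, the error the scanner software gave with each signal was larger. For AXL in OM it was 4986 on 49860 a.u. A gene was counted past 2-fold where its brightest probe was well above background on the brighter array. The signal on a dimmer array that was not well above background was replaced by a limit, and the fold is then given as "at least". Signals of different probes are not on a common scale, so each probe was compared only with itself, and marker lists as a sum over the same probes on each array.

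The identity of the cells was checked with marker genes. Of 11 melanocyte lineage markers, 9 were well above background on at least 1 array. SOX10, the neural crest and melanocyte transcription factor, gave 6254, 9598 and 5571 a.u. in OM, MB and NM. The pigment enzymes TYR and TYRP1 were at background on all 3 arrays. The summed signal of the 11 was 62513, 100789 and 45274 a.u. In MB against OM, 0 of 9 measured were past 2-fold. In MB against NM, S100B and CSPG4 were past 2-fold higher (22.2%, beside 10.6% of all genes) and 0 lower. PMEL (286, 214 and 309 a.u.) and MCAM (8671, 6919 and 6133 a.u.) were lower in MB than in OM. DCT (66.7, 64.3 and 73.0 a.u.) and MLANA (31.3, 40.4 and 30.3 a.u.) were low on all arrays. Of 6 fibroblast markers other than PDGFRB, COL1A1, COL1A2, COL3A1 and LUM were at background on all arrays, THY1 gave 960, 806 and 1072 a.u., and the summed signal of the 6 was 1004, 865 and 1141 a.u. EPCAM, KRT5 and CDH1 of the epithelial list, PTPRC of the leukocyte list and CDH5 of the endothelial list were also at background on all arrays. Other genes of these lists were not. In OM, MB and NM, KRT8 gave 1526, 1511 and 1445 a.u., CD68 gave 4716, 1766 and 5637, and VWF gave 185, 399 and 109. The summed signal was 1755, 1906 and 1604 a.u. for the epithelial list. It was 4924, 1988 and 5856 a.u. for the leukocyte list and 220, 503 and 363 a.u. for the endothelial list. Most of the leukocyte sum was CD68. In the endothelial list, PECAM1 gave 12.3, 89.7 and 15.5 a.u. and was well above background only in MB. TEK gave 18.4, 5.11 and 231 a.u., which is most of the endothelial sum in NM. The part of other cells in these signals was not tested.

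**Figure D1:**
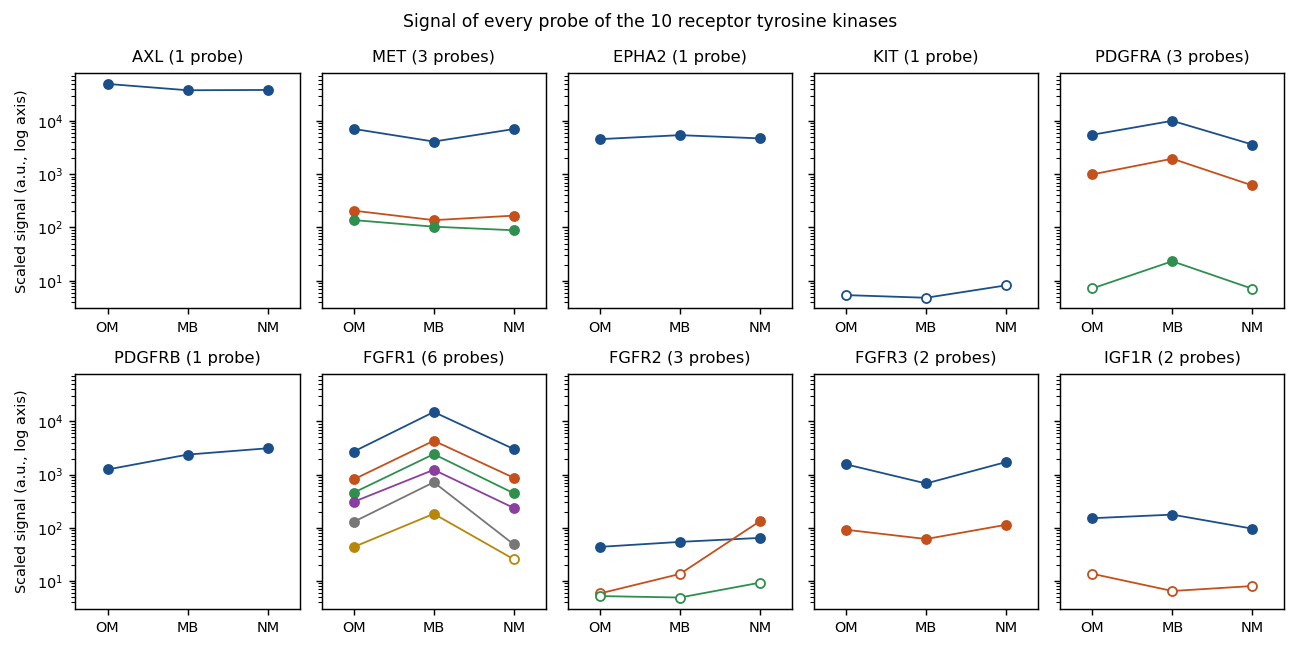
Scaled signal (a.u., log axis) of each of the 23 probes of the 10 receptors in OM, MB and NM, with a line for each probe. Filled points were well above background and open points were not. All 6 FGFR1 probes peak in MB, both FGFR3 probes are lowest there, and KIT is open on all 3 arrays.

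FGFR1 had the largest ratio among the 9 receptors that could be measured in bodies against the original monolayer. It is a receptor for fibroblast growth factors, and its gene is on chromosome 8. Its brightest probe gave 2704 a.u. in OM, 14993 in MB and 3014 in NM. MB stood 5.55-fold above OM (log2 2.47, technical SD 0.06) and 4.98-fold above NM (log2 2.31, technical SD 0.06). In NM the signal was 1.11-fold that of OM, a ratio that turned below 1 without scaling and with the median over the probes. All 6 FGFR1 probes, which lie at separate positions of the gene, were higher in MB, by 3.999- to 5.56-fold over OM. Over NM, 5 of the 6 were measured on both arrays, by 4.97- to 14.8-fold, and the sixth was not well above background in NM and stood at least 5.52-fold higher in MB. The 14.8-fold came from the probe designed on the cDNA AK024388, which gave 129, 718 and 48.6 a.u. and was the only FGFR1 probe past 2-fold between the monolayers, at 2.66-fold lower in NM than in OM. FGFR1 is among the genes that the study itself had picked from these arrays, so its size here is not independent evidence.

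FGFR3, another receptor of the same family, had the opposite order. Its brightest probe, at chr4:1777594-1777653 (hg17), gave 1558 a.u. in OM, 680 in MB and 1724 in NM. MB was 2.29-fold below OM (log2 -1.20, technical SD 0.07) and 2.53-fold below NM. Its other probe, at chr4:1776285-1776344, gave 91.9, 61.6 and 114 a.u., which is 1.49-fold below OM and 1.85-fold below NM and so short of 2-fold in both. FGFR3 in NM was 1.11-fold its level in OM, and this ratio fell below 1 without scaling.

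FGFR2 was close to background. Its brightest probe gave 43.8, 54.4 and 64.6 a.u. in OM, MB and NM, and the log2 ratio of MB over OM was 0.31 with a technical SD of 0.25. Its other probes went against each other in NM. They are shown here because they are probes of the same gene that gave unlike readings in NM. Their hg17 positions are chr10:123233207-123233266 for A_24_P206624 and chr10:123300946-123314047 for A_23_P303149, which spans an intron, both on the minus strand.
FGFR2 A_24_P206624: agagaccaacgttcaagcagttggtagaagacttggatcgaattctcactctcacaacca
FGFR2 A_23_P303149: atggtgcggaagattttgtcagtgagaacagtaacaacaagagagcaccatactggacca
A_24_P206624 was not well above background in OM or MB and gave 133 a.u. in NM, at least 6.39-fold above OM and 6.73-fold above MB. A_23_P303149 was at background on all 3 arrays, at 5.21, 4.89 and 9.31 a.u. The spot of A_24_P206624 lies in column 85 of 85. Of the 4 spots within 2 positions of it that were dim in OM and MB, 3 were well above background in NM, against 2.03% of 11406 such spots on the whole array. Whether the place on the slide had a part in the FGFR2 reading was not tested.

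The 2 receptors for platelet-derived growth factors differed in what happened after the bodies were returned to standard medium. PDGFRA, the receptor for all PDGF chains but PDGF-D, gave 5519 a.u. in OM, 10109 in MB and 3618 in NM with its brightest probe (chr4:55004917-55004976, hg17). MB was 1.83-fold above OM (log2 0.87, technical SD 0.06) and 2.79-fold above NM, and NM lay 1.53-fold below OM. A second PDGFRA probe had the same order at 995, 1962 and 617 a.u., with 1.97-fold over OM and 3.18-fold over NM. The remaining probe, from the cDNA BC015186, was well above background only in MB, at 23.2 a.u., which allows no more than "at least 1.11-fold" over OM. PDGFRB, the receptor that binds PDGF-B and PDGF-D dimers, has 1 probe (chr5:149473657-149473716, hg17). It gave 1246 a.u. in OM, 2375 in MB and 3120 in NM, so that NM was highest. MB was 1.91-fold above OM (log2 0.93, technical SD 0.06), and NM was 2.50-fold above OM (log2 1.32, technical SD 0.06). The bodies were 1.31-fold below NM. PDGFRB is also a marker of fibroblasts and pericytes. The fibroblast collagens were at background on the same arrays and THY1 was not, at 960, 806 and 1072 a.u., and the part of other cells in the PDGFRB signal was not tested.

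AXL, the receptor for GAS6, has 1 probe (chr19:46459235-46459294, hg17) and gave 49860 a.u. in OM, 37923 in MB and 38416 in NM. MB was 1.31-fold and NM 1.30-fold below OM (log2 -0.39 and -0.38, technical SD 0.06 each). MB and NM differed by less than the technical SD (log2 -0.02, SD 0.06), with a sign that changed under 4 of the 15 alternatives. MET, the receptor for hepatocyte growth factor, has a probe printed in 10 spots (chr7:116032241-116032300, hg17). It gave 7125 ± 301 a.u. (SD over 10 spots) in OM, 4117 ± 181 in MB and 7077 ± 243 in NM. MB was 1.73-fold below OM and 1.72-fold below NM, and the log2 ratio of NM over OM was -0.01 with a technical SD of 0.02 and changed sign under 2 alternatives. The other 2 MET probes were dimmer, at 207, 137 and 167 a.u. and at 138, 104 and 88.7 a.u. in OM, MB and NM. Both were below OM in MB, by 1.51- and 1.33-fold, but the second was 1.17-fold above NM, so the probes did not share 1 direction against NM. EPHA2, an ephrin receptor, gave 4572, 5435 and 4725 a.u. in OM, MB and NM. Its 1.19-fold of MB over OM turned below 1 with spike-in scaling, and its ratio of NM over OM, 1.03, turned under 4 scalings.

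IGF1R, which binds insulin-like growth factors and promotes survival, was low on all arrays. Its probe printed in 10 spots (chr15:97318690-97318749, hg17) gave 151 ± 8.28 a.u. in OM (9 spots used), 177 ± 10.3 in MB and 96.3 ± 10.5 in NM. MB was 1.84-fold above NM and NM 1.57-fold below OM, both more than the SD over spots. MB was 1.17-fold above OM, a ratio that fell below 1 with spike-in scaling. A second probe, from AF020763, was at background on all arrays. KIT was at background too. Its probe printed in 10 spots (chr4:55447439-55447498, hg17) gave 5.37 ± 1.13 a.u. in OM, 4.78 ± 0.567 in MB (9 spots used) and 8.19 ± 1.17 in NM, so no fold is given.

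**Figure D2:**
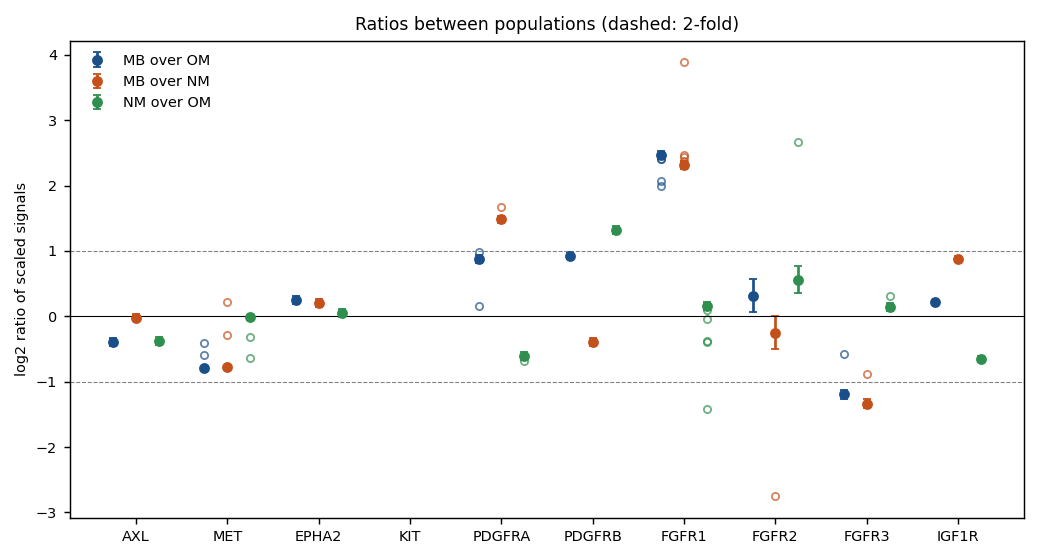
log2 ratios of scaled signals for MB over OM, MB over NM and NM over OM. Filled points are the brightest probe of each receptor with its technical SD, open points are its other probes (limits included), and dashed lines mark 2-fold. FGFR1 stands above 2-fold with MB against both monolayers, FGFR3 below it, and PDGFRB passes 2-fold for NM over OM.

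Counted over the 10 receptors, KIT was not measurable and 9 were measured in each comparison. In MB against OM, 1 was past 2-fold higher (FGFR1) and 1 lower (FGFR3), where 6.69% of all 14031 measured genes were higher and 4.16% lower. The median log2 ratio of the 9 was 0.25, and that of all genes 0.14. In MB against NM, PDGFRA and FGFR1 were past 2-fold higher and FGFR3 lower, against 10.6% and 9.24% of all genes. The medians were -0.02 for the receptors and 0.04 for all genes. In NM against OM, PDGFRB was the only receptor past 2-fold, higher in NM, against 4.92% of all genes, and 0 were lower, against 3.14%. The medians were 0.05 for the receptors and 0.10 for all genes. With so few receptors, these counts do not set them apart from the array as a whole. By the study's own limit of 5-fold with the brighter signal above 100 a.u., FGFR1 alone passed in MB against OM, where 0.955% of all genes were higher and 0.627% lower. It no longer passed with 75th percentile scaling (log2 2.28) or spike-in scaling (log2 2.17). No receptor passed in MB against NM, where 1.4% of all genes were higher and 1.35% lower, or in NM against OM, where 0.575% were higher and 0.145% lower. In MB against NM, FGFR1 missed this limit at 4.98-fold with its brightest probe. It passed with no scaling (log2 2.47), the median over probes (log2 2.41) and quantile normalization (log2 2.33), and 4 of its 6 probes were past 5-fold. Relative to the median of all genes, the log2 ratio of MB over OM was 2.33 for FGFR1 and -1.33 for FGFR3, and that of NM over OM was 1.22 for PDGFRB.

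The starts of 3 receptors that passed 2-fold in a comparison are shown with the motifs found in them, as the 250 bases before a RefSeq start in GRCh38.p14. PDGFRA is at chr4:54229043-54229292 (plus strand, the first of 2 starts), PDGFRB at chr5:150155846-150156095 (minus strand) and FGFR3 at chr4:1793043-1793292 (plus strand). Capitals mark a GC box (GGGCGG, or CCGCCC where it lies on the other strand), the site bound by SP1, or a match to an AP-1 pattern. The AP-1 pattern was searched as TGANTCA, where N is any base.
PDGFRA: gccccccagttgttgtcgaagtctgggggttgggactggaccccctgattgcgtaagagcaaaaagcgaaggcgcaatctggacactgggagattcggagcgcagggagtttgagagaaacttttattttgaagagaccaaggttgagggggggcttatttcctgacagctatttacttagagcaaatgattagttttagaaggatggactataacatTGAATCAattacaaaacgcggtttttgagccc
PDGFRB: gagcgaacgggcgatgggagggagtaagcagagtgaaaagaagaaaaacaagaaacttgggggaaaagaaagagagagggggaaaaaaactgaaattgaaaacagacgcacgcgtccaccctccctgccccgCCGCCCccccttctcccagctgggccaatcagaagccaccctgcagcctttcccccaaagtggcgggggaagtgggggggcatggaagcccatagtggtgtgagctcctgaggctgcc
FGFR3: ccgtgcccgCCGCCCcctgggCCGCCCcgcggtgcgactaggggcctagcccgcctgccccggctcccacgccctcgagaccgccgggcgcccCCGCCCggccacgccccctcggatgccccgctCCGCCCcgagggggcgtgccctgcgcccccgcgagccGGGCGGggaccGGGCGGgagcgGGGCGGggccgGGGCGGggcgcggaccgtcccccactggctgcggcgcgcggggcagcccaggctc
FGFR3 has 8 GC boxes in this window, PDGFRB has 1, and the first PDGFRA start has none. The PDGFRA window has 1 match to the AP-1 pattern, TGAATCA, with an A at the open position. FGFR1 was left out of the motif search, so its starts were not examined. Each of the 9 receptors searched has a GC box at 1 or more of its starts, in 10 of 15 windows in all. Of 35116 RefSeq windows, 42.6% have a GC box. GC boxes are common in promoters, and starts of the same gene are not independent. The AP-1 pattern, with any base at its centre, was found in 1 of the 15 windows and in 6.57% of all. Neither a SOX motif (ACAATG, in 9.29% of all windows) nor, outside the second AXL start, the M-box core bound by MITF (CATGTG, 9.42%) was found. Both strands were searched, and the 4 motifs do not overlap in the windows shown.

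The ligands of the receptors were taken from a list of 27 genes, of which 17 were measured in bodies against the original monolayer. PDGFA and IGF2 were past 2-fold higher in MB (11.8%), and FGF12 was lower (5.88%), beside 6.69% and 4.16% of all genes. FGF12 is an intracellular protein, so no secreted ligand of the list was past 2-fold lower. The PDGFRA ligand PDGFA gave 6817 a.u. in OM, 19756 in MB and 7577 in NM, 2.90-fold higher in MB than in OM and 2.61-fold higher than in NM. Thus PDGFA and PDGFRA had their highest signal on the same array. PDGFC, another PDGFRA ligand, gave 1531, 1201 and 2553 a.u. and was 2.13-fold lower in MB than in NM. PDGFB and PDGFD, which bind PDGFRB, were at background on all arrays.

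IGF2, a ligand of IGF1R, gave 18293 a.u. in OM, 81419 in MB and 64240 in NM. It was 4.45-fold above OM in MB and stayed 3.51-fold above OM in NM, and its second probe gave log2 ratios of 1.64 and 1.49. IGF1 was at background on all arrays. Among the fibroblast growth factors, FGF2, which binds FGFR1, was measured by a probe in 10 spots at 368 ± 12.3, 724 ± 12.4 and 559 ± 11.7 a.u., 1.97-fold higher in MB than in OM. FGF1, a ligand of all FGF receptors, gave 257, 145 and 61.3 a.u. and was 4.20-fold lower in NM than in OM. FGF12 (2512, 668 and 1690 a.u.) was 3.76-fold lower in MB than in OM. FGF13 (9047, 4726 and 3584 a.u.) was 2.52-fold lower in NM than in OM. FGF12 and FGF13 are intracellular proteins that resemble growth factors and are not secreted ligands, so they stand apart from the role in the list's name.

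By its brightest probe, none of the listed ligands of the AXL family, MET, KIT and EPHA2 was past 2-fold between bodies and the original monolayer. GAS6 gave 895, 1033 and 1488 a.u. in OM, MB and NM, and PROS1, the other ligand of the AXL family, gave 125, 142 and 219 a.u. with its brightest probe. The 3 PROS1 probes differed in size, with log2 ratios from 0.18 to 1.5 for MB over OM and from 0.80 to 2.86 for NM over OM. HGF was low at 30.9, 33.7 and 44.6 a.u. KITLG, the ligand of KIT, was measured (135, 124 and 247 a.u.) on arrays where its receptor was not. Of the 3 KITLG probes, 1 gave a ratio. Of the ephrins that bind EPHA2, EFNA1 gave 5430, 3362 and 8778 a.u., 2.61-fold lower in MB than in NM, and EFNA4 gave 702, 1087 and 402 a.u., 2.70-fold higher. Over the list, the median log2 ratio was 0.21 for MB over OM and 0.53 for NM over OM, where that of all genes was 0.14 and 0.10. In NM against OM, 1 of 16 measured genes of the list was past 2-fold higher (IGF2, 6.25%) and 2 were lower (FGF1 and FGF13, 12.5%). Of all genes, 4.92% were higher and 3.14% lower. The medians and shares of the list include FGF12 and FGF13, which are not secreted ligands.

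**Figure D3:**
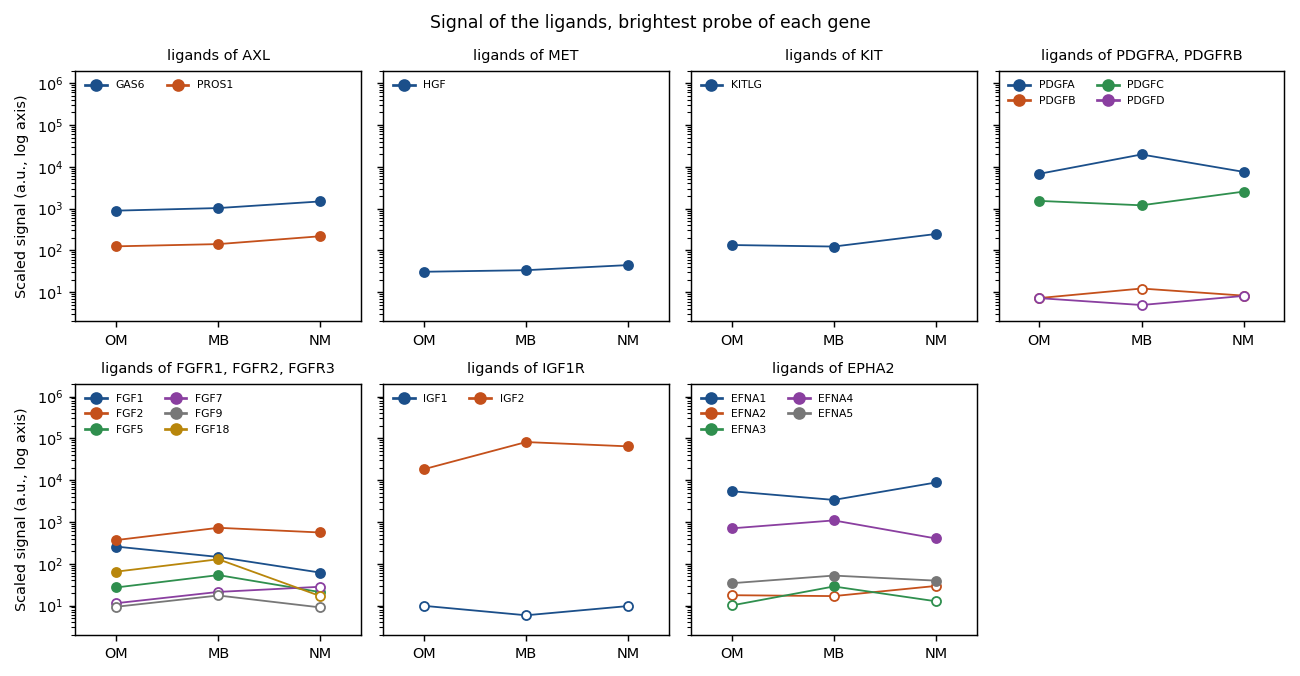
Scaled signal (a.u., log axis) of ligand genes in OM, MB and NM, with the brightest probe of each gene. Genes are grouped by the receptor they were listed for, and PROS1 is placed with AXL as a ligand of the AXL family. Filled points were well above background and open points were not. PDGFA peaks in MB, IGF2 is above OM on both MB and NM, and PDGFB, PDGFD and IGF1 are open throughout.

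Of 40 further receptor tyrosine kinases on the array, 28 were measured in MB against OM. Past 2-fold, 7 were higher in MB (25%) and 1 lower (3.57%), where 6.69% and 4.16% of all genes were. ERBB3, the neuregulin receptor of neural crest cells, gave 737, 4148 and 289 a.u. in OM, MB and NM, 5.63-fold above OM. It too is among the genes that the study picked from these arrays, and its 3 probes ranged from 1.11 to 2.75 in log2 ratio. MERTK, of the AXL family, was not well above background in OM and gave 105 a.u. in MB and 64.5 in NM. These are at least 5.03- and 3.09-fold above OM, and 1 of the 2 MERTK probes gave a ratio. NTRK3, a neurotrophin receptor, gave 58.8, 270 and 68.7 a.u., 4.58-fold higher in MB than in OM, but its second probe gave a log2 ratio of only 0.58. ROR1, at 188, 82.0 and 353 a.u., was 2.29-fold lower in MB than in OM, and its second probe gave a log2 ratio of -0.63.

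Between the monolayers, 29 of these receptors were measured, of which 3 were past 2-fold higher in NM (10.3%) and 8 lower (27.6%). The background was 4.92% and 3.14% of all genes. EGFR, measured in 10 spots, gave 596 ± 21.2 a.u. in OM, 405 ± 17.5 in MB and 2350 ± 97.7 in NM, 3.95-fold higher in NM than in OM. TEK, the angiopoietin receptor, was not well above background in OM or MB and gave 231 a.u. in NM, at least 11.1-fold over OM, with 1 probe whose spot lies in column 1. None of the 6 neighbouring spots that were dim in OM and MB was well above background in NM. The lowest were EPHA4, an ephrin receptor (1004, 1717 and 274 a.u., 3.66-fold lower in NM than in OM), ALK (227, 809 and 75.4 a.u., 3.01-fold lower) and EPHB1 (at least 2.85-fold lower). The median log2 ratio of the list was 0.24 for MB over OM and -0.10 for NM over OM.

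Of 24 adaptors and proximal signalling genes of the receptors measured in NM against OM, 0 were past 2-fold in either direction, where 4.92% of all genes were higher and 3.14% lower. In MB against OM, 3 of 25 were higher (12%) and 1 lower (4%), beside 6.69% and 4.16% of all genes. GAB1, a docking protein downstream of MET and EGFR, was at least 3.71-fold higher in MB than in OM. Its signal was 90.6 a.u. in MB, and it was not well above background in OM (24.4 a.u.) or NM (27.4 a.u.). Of the 3 GAB1 probes, 2 gave a ratio, with log2 of 1.76 and 1.89. SOS1, the exchange factor that activates RAS, gave 40.5, 122 and 52.4 a.u. in OM, MB and NM, and VAV3 gave 55.5, 144 and 47.7 a.u. IRS2, an adaptor of IGF1R, was 2.12-fold lower in MB than in OM (21079, 9921 and 23582 a.u.). FRS2, the docking protein of FGF receptors, gave 104, 111 and 103 a.u. on the 3 arrays.

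All 22 genes of a list of receptor inhibitors and turnover factors were measured. In MB against OM, 4.55% of them were past 2-fold higher and 9.09% lower, beside 6.69% and 4.16% of all genes. In MB against OM, 1 was higher, SH2B3, an inhibitory adaptor of KIT and cytokine receptors, with signals of 6533, 13971 and 2989 a.u. in OM, MB and NM. Past 2-fold lower were PTPRF, a receptor phosphatase (65657, 25167 and 58554 a.u., 2.61-fold lower), and LRIG1, which promotes the degradation of MET and ERBB receptors (7505, 3576 and 8790 a.u., 2.10-fold lower). In NM against OM, SH2B3 and TIMP3, an inhibitor of receptor shedding, were lower (9.09%, beside 3.14% of all genes), but the second SH2B3 probe gave a log2 ratio of -0.43. Among 22 measured coreceptors and ligand processing genes, 2 were past 2-fold higher in MB than in OM (9.09%) and 4 were lower (18.2%). These shares stand beside 6.69% and 4.16% of all genes. The higher genes were IGFBP5 (49.8, 243 and 104 a.u.) and PLAT (73773 ± 2470, 147577 ± 3445 and 73251 ± 2084 a.u., 10 spots each). PLAT lay at the limit, at 2.00-fold of MB over OM. The 3 lowest were IGFBP6, which prefers IGF2 (4018, 1599 and 2764 a.u.), IGFBP1 (58.1, 26.3 and 74.2 a.u.) and the coreceptor NRP1 (11946, 5570 and 22418 a.u.). The NRP1 probes ranged in log2 ratio from -1.10 to -0.71 for MB over OM. They ranged from -0.29 to 0.91 for NM over OM and so did not share 1 direction. IGFBP3 (126992 ± 3121, 208058 ± 9248 and 266847 ± 15931 a.u.) and IGFBP5 were past 2-fold higher in NM than in OM (9.09%, beside 4.92% of all genes).

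**Figure D4:**
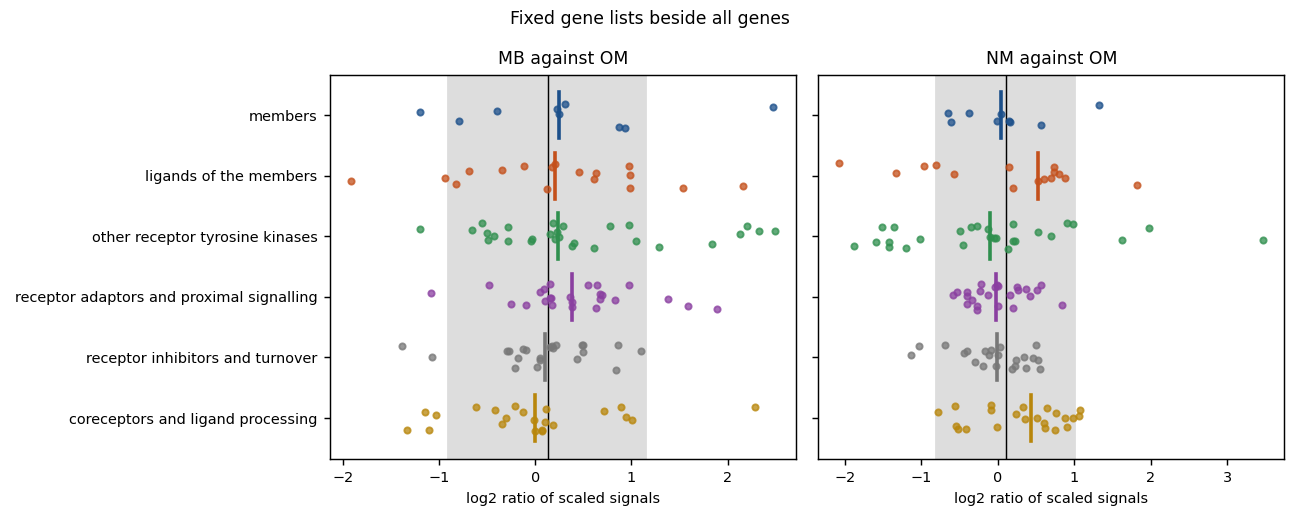
log2 ratios of scaled signals for MB against OM and NM against OM, with a point for each gene of a list and a coloured bar for the list's median. The grey band holds the middle 90% of all measured genes and the black line is their median. Genes of every list reach beyond the band for MB against OM. For NM against OM, genes of every list but the adaptors do.

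Over the 5 lists, 114 of 143 genes were measured in MB against OM, and 15 were past 2-fold higher (13.2%) and 9 lower (7.89%), beside 6.69% and 4.16% of all genes. This split became 12 and 11 with 75th percentile scaling, 11 and 11 with spike-in scaling and 18 and 7 with the median over probes. It fell to 10 and 7 with normexp background correction and to 12 and 7 with no background subtraction. In NM against OM, 6 of 113 were higher (5.31%) and 12 lower (10.6%), beside 4.92% and 3.14% of all genes. The counts were 8 and 10 with the geometric mean of the housekeeping genes, and 4 and 13 with 75th percentile scaling, spike-in scaling or no scaling. They fell to 4 and 8 with normexp background correction and to 4 and 9 with no background subtraction. In MB against NM, 25 of 114 were higher (21.9%) and 16 lower (14.0%), beside 10.6% and 9.24% of all genes. They became 21 and 20 with spike-in scaling, 22 and 20 with 75th percentile scaling and 29 and 13 without scaling. Normexp background correction and no background subtraction each gave 19 and 13. The shares of all genes belong to the main processing and were not recomputed under the alternatives. Other scalings also moved all genes together. For MB over OM, the median log2 ratio of all genes went from 0.14 to -0.05 with 75th percentile scaling and to -0.17 with spike-in scaling. Whether the lists moved more than all genes was not tested.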

How the data were processed

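RNA of 3 populations was labelled with Cy3 and hybridised to 1 Agilent array each. The intensity values the authors deposited are spot signals in arbitrary units from Feature Extraction (version 9.5.3.1 in the file headers, 9.5 in the submitters' processing notes), with background subtracted and no scaling between arrays; their value table repeats these intensities and served as an alternative. Control and outlier spots were left out, spots of a probe were averaged, and arrays were scaled to the mean signal of 3 housekeeping genes, GAPDH, ACTB and HSP90AA1 (the study names HSP90 without the gene). A gene was represented by its brightest probe. Limits for dim probes came from the lowest signal well above background on each array, 20.9 a.u. for OM, 19.4 for MB and 29.1 for NM before scaling. The receptors and the gene lists were chosen with earlier results of these data known. Named genes are the receptors, their ligands, and from each list up to 3 highest and 3 lowest past 2-fold in MB or NM against OM. Marker genes and FRS2, which was not past 2-fold, were named outside this rule. Names were updated through RefSeq, and coordinates are hg17 as deposited. Exons and UTRs of the probes were not looked up, since no hg17 annotation was used. The alternatives were other scalings, background corrections, filters, probe rules and the value table. Scripts were tested on simulated data. Python 3.11.15, numpy 2.4.6, pandas 2.3.3, matplotlib 3.10.9, R 4.3.3 and limma 3.58.1 (normexp, offset 50) were used.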

Additional observations from a re-analysis of the deposited data

How the results depend on the processing

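The log2 ratios of the 9 measured receptors in 3 comparisons, 27 in all, were recomputed under 15 alternatives, and 20 kept their sign in every one that gave a value. The ratios that turned are named in the report. FGFR1 stayed between 2.17 and 2.47 for MB over OM, FGFR3 between -1.50 and -0.89, PDGFRA between 1.31 and 1.64 for MB over NM, and PDGFRB between 1.14 and 1.40 for NM over OM. The median over the probes of a gene left 1 receptor past 2-fold in MB against OM (FGFR1) in place of 2, and made 2 in NM against OM in place of 1. Normexp background correction and no background subtraction also gave 2 in NM against OM. The added receptor was FGFR2, through the probe near the array's edge. In MB against NM, the same 3 alternatives gave 4 receptors in place of 3, with FGFR2 lower at -1.50 (median over probes), -1.30 (normexp) and -1.37 (no background subtraction), and no scaling gave 4 with IGF1R at 1.03. With spike-in scaling, the receptors past 2-fold lower in MB against OM were 2 in place of 1, with MET added at -1.10. That scaling moved the median of all genes from 0.14 to -0.17 for MB over OM, 75th percentile scaling moved it to -0.05, and no scaling moved that of NM over OM from 0.10 to -0.09. No paired analysis was possible because each population has 1 array. The number of arrays limits the precision, and signals near background limit KIT, FGFR2 and IGF1R.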
